A study of Drosophila melanogaster with 10 samples.

Results

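The comparison described here sets wing imaginal discs that overexpressed Yki alone against control discs. It used 5 of the 10 RNA-seq libraries of the series, 3 labelled ap > Yki and 2 labelled ap > GFP (replicates 1 and 3), chosen by their labels, and covered all 7987 genes of the deposited table. All 5 carry Gal4 under the apterous enhancer (ap-Gal4), UAS GFP and the temperature-sensitive repressor tubulin-Gal80ts, and the ap > Yki larvae also carry UAS Yki. By the methods the experimental crosses had 1 copy of UAS GFP and the control crosses 2. The figure captions describe Yki alone as crossed to UAS GFP as a control, and the GFP copies of the sequenced ap > Yki larvae are not stated. Yki and the dose of GFP may thus differ together, in which case they cannot be told apart. Discs came from larvae of the third instar, some days after the shift to the temperature at which the repressor fails. The labels describe the ap > Yki discs as mildly overgrown or hyperplastic and the ap > GFP discs as wild type. The other 5 libraries, ap > NelfAi (2) and ap > Yki+NelfAi (3), carry an RNAi construct against Nelf-A, a subunit of the complex that holds RNA polymerase II near promoters, and entered the estimate of the spread. The driver is active in the dorsal compartment only, whereas whole discs were pooled for RNA, with fewer discs in an ap > Yki sample than in a control sample.

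Yki is the transcriptional co-activator at the end of the Hippo pathway. The kinases Hippo and Warts phosphorylate it and keep it in the cytoplasm, and unphosphorylated Yki enters the nucleus, binds DNA through partners such as Scalloped and switches on genes for growth and survival. The wing disc is the larval epithelium from which the wing and the notum form at metamorphosis, under the control of the steroid hormone ecdysone.

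The control libraries held 8384594 and 9746830 reads on genes and the ap > Yki libraries 12506663, 12305413 and 12637389. The deposited value of a gene is its reads divided by a factor of the library, and 1 read was worth between 0.0464 and 0.0639 in these 5 libraries. Replicate 3 of ap > Yki stood apart from its replicates, with Spearman correlations of 0.950 and 0.957 across genes against 0.987 between replicates 1 and 2, and its deviations from the gene means rose with transcript length (rho = 0.474 across genes, against -0.203 and -0.127 in the other ap > Yki libraries). The first principal component of all 10 libraries, with 48.7% of the variance, placed the control libraries at -36.0 and -39.9, the ap > Yki libraries at -13.2, -7.17 and 3.39, and the ap > Yki+NelfAi libraries between 48.9 and 59.2. The methods call the samples of a genotype biological replicates. The labels do not say that they came from separate cultures, and p-values measure the spread between these samples. Genes that mark the wing disc were present in all 5 libraries. The pouch gene nub had values of 57.0 and 59.6 in the controls and 52.6, 72.5 and 55.4 in ap > Yki, and apterous itself 127 and 132 against 110.2, 172 and 193.

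Of 7858 genes tested with limma, 189 (2.41%) passed with a higher level in ap > Yki and 129 (1.64%) with a lower one. A call required a minimum change of 1.5-fold and an adjusted p (Benjamini-Hochberg) below 0.05. The fold change was at least 2-fold for 159 of the genes called higher and 119 of those called lower, and at least 4-fold for 48 and 64. The median log2 fold change of all genes tested was -0.01. Without regard to a test, 1712 genes (21.8%) lay above both control libraries in all 3 ap > Yki libraries and 1515 (19.3%) below both. Since 0.5 was added to each value before taking log2, the changes of low genes are understated, and 31 of the genes called higher and 23 of those called lower had a mean value under 5 in both genotypes. A fit that leaves out 1 control rests on 1 ap > GFP library, here and in all such fits below. Calls can be lost in it although the fold change hardly moves. The counts moved with single libraries. Without ap > GFP replicate 1 they dropped to 37 higher and 23 lower, and without replicate 3 to 24 and 15. Leaving out ap > Yki replicate 1, 2 or 3 gave 69 and 59, 92 and 60, or 112 and 82, and leaving out ap > Yki+NelfAi replicate 2 or 3 gave 121 and 90 or 117 and 87. Without ap > NelfAi replicate 1 or 2 the counts were 380 and 268 or 383 and 272. Those 2 libraries had a Spearman correlation of 0.859 with each other, and a fit without both, added after seeing the data, called 383 and 269.

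**Figure D1:**
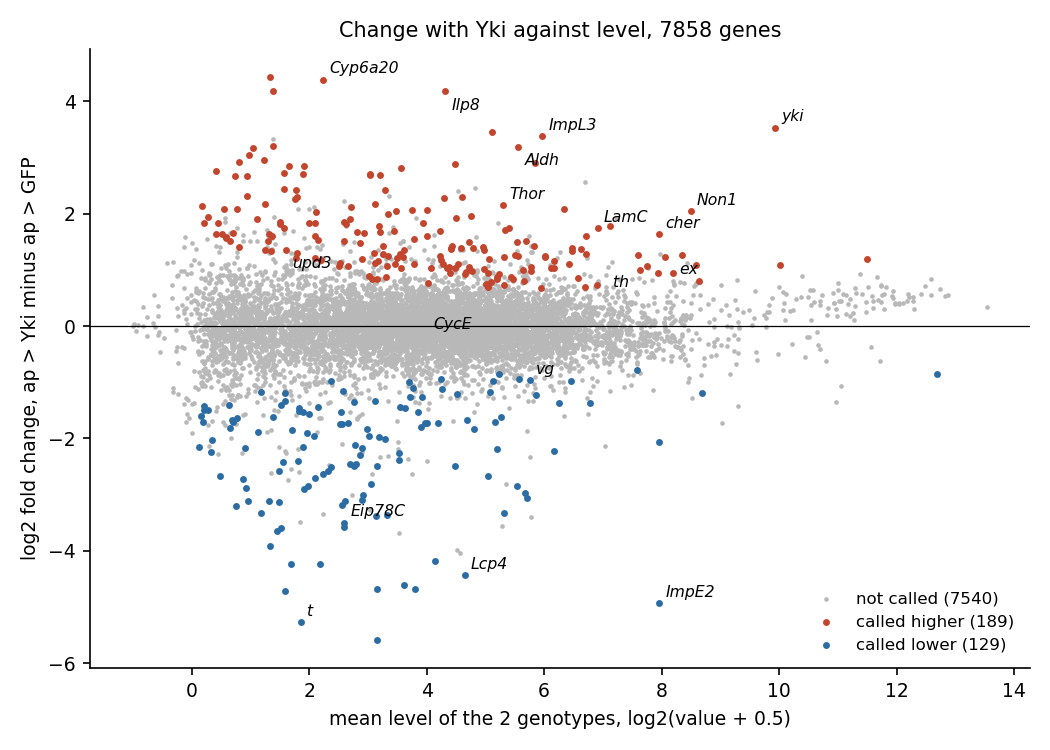
Log2 fold change of ap > Yki over ap > GFP (vertical axis) by the mean level of the 2 genotypes on the log2(value + 0.5) scale (horizontal axis), 1 point for each of the 7858 genes tested. The 189 genes called higher are red and the 129 called lower are blue, with yki and ImpE2 standing far from the other genes of their level.

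The transgene was plain in the data. The gene yki itself had values of 265 and 307 in the control libraries and of 2637, 3396 and 4007 in ap > Yki, an 11.6-fold rise on the fitted scale (log2 fold change 3.53, standard error 0.352, adjusted p = 0.00114 by limma). Every ap > Yki library lay above both controls by a wide margin. Reads of the transgene and of the endogenous gene, which lies on chromosome arm 2R (dm6) between 24065975 and 24068485, were counted together. In whole discs a change in the share of cells that express a gene and a change in RNA per cell cannot be told apart, here and in all values below.

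Of 39 Hippo pathway components tested yki alone was called, by limma, edgeR and DESeq2 alike. The median log2 fold change was -0.06, and 2 members had an unadjusted limma p under 0.05. The call makes 2.56% of the list, near the share over all genes. Of all genes tested 2.41% were called higher and 1.64% lower, which is the measure for every list below. The kinase genes hpo and wts had log2 fold changes of -0.25 and 0.23, and sd, which encodes the DNA-binding partner of Yki, -0.40. Among 29 genes that have been described as Yki targets in discs, 3 were called higher (Ilp8, upd3 and Iap2) and 1 lower (vg), with a median of 0.13. Of the 29 genes 9 had an unadjusted limma p under 0.05. By edgeR 2 were called higher and 1 lower, and by DESeq2 5 higher and 1 lower. Without ap > Yki replicate 3 limma called 1 higher and none lower. The inhibitor of apoptosis th, also known as Diap1, had values of 113 and 103 in the controls and 200.1, 163 and 130.3 in ap > Yki. All 3 ap > Yki values were above both controls, but the difference was not called (log2 fold change 0.58, standard error 0.238, adjusted p = 0.239 by limma). Its relative Iap2 was called higher, from 47.8 and 48.5 to 75.0, 83.7 and 74.9 (log2 fold change 0.69, standard error 0.159, adjusted p = 0.0463 by limma), and this held in 2 of the 10 leave-one-out fits, each of which omitted 1 library. The cyclin gene CycE (log2 fold change -0.17, standard error 0.378, adjusted p = 0.876 by limma) and dm, which encodes Myc (log2 fold change -0.05, standard error 0.783, adjusted p = 0.983 by limma), were not called, and their groups overlapped.

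The upstream regulators ex and kibra, which are part of the feedback of the pathway, were highest in 1 library. For ex the values were 241 and 163 in the controls and 206, 256 and 795 in ap > Yki (log2 fold change 0.81, standard error 0.824, adjusted p = 0.695 by limma), and for kibra 38.8 and 25.8 against 55.6, 54.1 and 165 (log2 fold change 1.31, standard error 0.706, adjusted p = 0.380 by limma). In both genes replicate 3 of ap > Yki, the library whose values rose with transcript length, was several times above the other ap > Yki libraries, and neither gene was called. For ex the groups overlapped, whereas for kibra all ap > Yki libraries lay above both controls. Without ap > Yki replicate 3 the log2 fold changes were 0.21 for ex and 0.78 for kibra. The annotated exons of ex span 6672 bases and those of kibra 5750, against a median of 2174 over all genes tested. With the trend with transcript length removed, the log2 fold changes were 0.89 for ex (adjusted p = 0.238 by limma) and 1.37 for kibra (adjusted p = 0.0513 by limma), as large as before. The Dachsous pathway gene fj (-0.15), the Hippo activator Mer (0.13) and wg, the ligand of the Wingless pathway (0.58), were not called either. The wing selector gene vg, whose product works with Scalloped in the pouch, was called lower, from 74.0 and 75.4 to 39.9, 39.1 and 35.8 (log2 fold change -0.96, standard error 0.213, adjusted p = 0.0403 by limma). This call was kept in 2 of the 10 leave-one-out fits.

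The largest rises among genes with no overlap between groups and an average of 5 or more in the higher genotype were those of Lcp65Ag2, Cyp6a20, Ilp8, CG11697, yki, CG43394, ImpL3, Osi15, Aldh and CG6830. Ilp8 encodes a relaxin-like peptide that growing or damaged discs secrete and that delays pupariation. Its values were 6.20 and 2.48 in the controls and 73.3, 100.02 and 72.3 in ap > Yki (log2 fold change 4.19, standard error 0.592, adjusted p = 0.00659 by limma), with no overlap, and the call was kept in 9 of 10 leave-one-out fits. Cyp6a20, a cytochrome P450, was near the detection limit in the controls at 0.575 and 0.486 (9 reads each) and at 24.6, 18 and 20.9 in ap > Yki (log2 fold change 4.38, standard error 0.406, adjusted p = 0.000951 by limma). For CG11697, also named Reepl1, 1 and 3 reads were counted in the controls and 170, 200 and 289 in ap > Yki (log2 fold change 4.18, standard error 0.227, adjusted p = 4.36e-05 by limma). The ratio of the summed reads, scaled as deposited, was 92.1 (95% exact interval 35.8 to 339, counting error only). Osi15, of the Osiris family of insect membrane proteins, went from 0.639 and 0.108 to 5.61, 6.93 and 9.47 (log2 fold change 3.21, standard error 0.525, adjusted p = 0.0122 by limma), and CG6830 from 0.256 and 0.108 to 6.58, 4.94 and 5.48 (log2 fold change 3.18, standard error 0.250, adjusted p = 0.000489 by limma). In each of these genes the ap > Yki libraries were near each other and the controls were low.

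**Figure D2:**
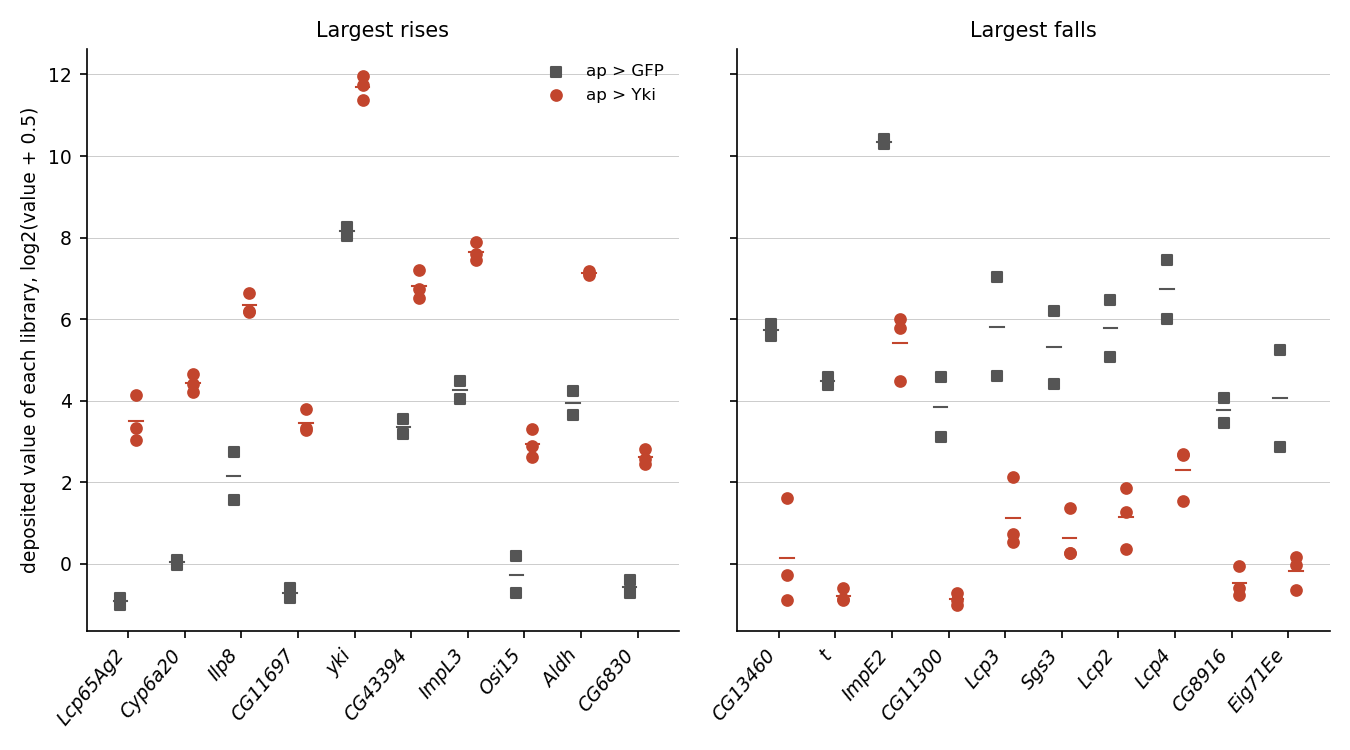
Deposited values of the 5 libraries on the log2(value + 0.5) scale for the 10 largest rises (left) and the 10 largest falls (right), with squares for ap > GFP, circles for ap > Yki and short lines for the means of the log2 values. By the rule of choice no gene shown has overlapping groups. The 2 control libraries are farthest apart for Lcp3, Sgs3 and Eig71Ee among the falls.

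The ligands of the JAK/STAT pathway were low in all 5 libraries. The ligand gene upd3 had values of 1.79 and 1.03 in the controls and 4.04, 4.18 and 4.69 in ap > Yki (log2 fold change 1.36, standard error 0.282, adjusted p = 0.0315 by limma), which held in 4 of 10 leave-one-out fits. For upd2 the values were 1.85 and 1.83 against 5.82, 7.27 and 4.27 (log2 fold change 1.39, standard error 0.371, adjusted p = 0.0752 by limma), and for os, also named upd1, 4.28 and 4.91 against 8.09, 12.0 and 8.59 (log2 fold change 0.96, standard error 0.403, adjusted p = 0.249 by limma). Neither was called, although in both genes every ap > Yki library was above both controls. Of 12 genes of the pathway tested only upd3 was called by limma (median 0.41). Log2 fold changes in the list ran from -1.17 to 1.83. An unadjusted limma p under 0.05 was found for 4 members, and DESeq2 called 2. The receptor gene dome (0.02), the kinase gene hop (-0.31) and Stat92E (-0.20) were not called. The median log2 fold change of 26 genes of the JNK and wound response was 0.28. Of these, 4 (15.4%, against 2.41% of all genes) were called higher and none lower. Beside Ilp8 these were mol, a factor for the maturation of the oxidase Duox (from 4.22 and 4.48 to 20.1, 13.1 and 16.3, log2 fold change 1.79), cher, which encodes filamin (from 151 and 127 to 392, 382 and 537, 1.63), and PGRP-SA, a receptor for bacterial cell wall (from 1.02 and 0.756 to 5.61, 2.90 and 3.30, 1.63). The JNK phosphatase puc (-0.37) and the matrix metalloprotease Mmp1 (0.06) were not called. Without ap > GFP replicate 3 none of the 26 was called.

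Several genes of metabolism and detoxification were among the rises. ImpL3, the lactate dehydrogenase gene, rose from 16.0 and 21.9 to 194, 235 and 173 (log2 fold change 3.38, standard error 0.482, adjusted p = 0.00688 by limma). It was the only one of 17 glycolytic genes called, with a list median of -0.01. Aldh, an aldehyde dehydrogenase gene, rose from 18.5 and 12.0 to 145, 139.9 and 136 (log2 fold change 3.19, standard error 0.426, adjusted p = 0.00450 by limma), and the 3 ap > Yki libraries were close together. Of 25 cytochrome P450 genes, 4 were called higher and 1 lower, with a median of 0.37. After Cyp6a20 came Cyp18a1, whose enzyme inactivates ecdysone, with values of 3.13 and 2.32 in the controls and 21.6, 19.4 and 20.0 in ap > Yki (log2 fold change 2.70, standard error 0.184, adjusted p = 0.000228 by limma), which held in all 10 leave-one-out fits. The calls for Cyp6d2 (1.95) and Cyp304a1 (1.51) rest on means under 0.5 in the controls, and Cyp4e2 was lower (-1.33). With either control library left out 2 of the P450 genes were called higher and none lower, and Cyp304a1 held in 3 of 10 leave-one-out fits. Of 26 glutathione S-transferase genes 3 were higher, GstE6 (1.69), GstT4 (1.40) and GstD9 (1.39), and GstZ2 was lower (-1.81), with a median of 0.31. None of these 4 was called with either control library left out, and GstD9 held in 2 of 10 leave-one-out fits and was not called by edgeR (adjusted p = 0.0617). Thor, the inhibitor of translation initiation known as 4E-BP, was the second member called in the insulin and TOR list beside Ilp8, at 25.3 and 12.0 in the controls and 85.2, 74.8 and 79.1 in ap > Yki (log2 fold change 2.16, standard error 0.334, adjusted p = 0.0100 by limma). The median of that list was -0.14 over 23 genes, and without ap > GFP replicate 3 none was called.

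A list of purine and one-carbon metabolism, chosen after values had been seen, had 5 of 19 members called higher and none lower, with a median of 0.27. These were Ady43A, an adenosine kinase (1.83), Ahcy89E, a relative of adenosylhomocysteinase (1.21), Sam-S, the S-adenosylmethionine synthetase (1.09), AdSS, adenylosuccinate synthetase (0.98), and ade2, an enzyme of purine synthesis (0.93). Sam-S had values of 267 and 259 against 528, 537 and 617, close together within each genotype. With either control library left out none of the 5 was called.

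Few cell cycle genes were called, which lists of this size would show at the shares over all genes (2.41% higher, 1.64% lower). None of 44 genes of DNA replication and S phase was called by limma, edgeR or DESeq2, with a median log2 fold change of 0.10. An unadjusted limma p under 0.05 was found for 3 of the 44, against 1400 of all 7858 genes tested. The S phase list ran from -0.81 (Claspin) to 0.76 (Ts, thymidylate synthase), and PCNA had -0.18. Of 47 genes of mitosis and G2/M, 1 was called, mars, which encodes a spindle protein, from 28.1 and 23 to 41.3, 44.6 and 46.9 (log2 fold change 0.78, standard error 0.178, adjusted p = 0.0433 by limma). That call was kept in 2 of 10 leave-one-out fits and not by edgeR (adjusted p = 0.0511), and the list median was 0.14. Of the 47 genes 8 had an unadjusted limma p under 0.05. DESeq2 called 3 of them higher and edgeR none. The phosphatase stg, which sets the entry into mitosis, had 0.43 and was not called, nor were CycA (0.03) and CycB (0.01). Of 14 apoptosis genes only Iap2 was called, with a median of 0.04.

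Genes of DNA repair and the damage response, a list chosen after values had been seen, had 9 of 56 members called higher and none lower, with a median of 0.26. They include both subunits of the Ku heterodimer that binds broken ends, Ku80 (from 7.29 and 6.53 to 18.3, 17.2 and 14.7, log2 fold change 1.21) and Irbp, the Ku70 gene (from 7.99 and 6.04 to 16.6, 16.8 and 13.3, 1.10). The nuclease gene mre11 rose by 1.17, the scaffold gene XRCC1 by 1.16 and spel1 by 0.94 on the log2 scale. Also called were lok, the checkpoint kinase Chk2 (0.84), agt, an alkyltransferase (1.22), and Ude, a uracil-DNA nuclease (1.75). All 9 genes lay above both controls in every ap > Yki library, as did 21.8% of all genes. This adds little, since the calls rest on the same values. By edgeR and by DESeq2 on the recovered reads 9 members were called as well, whereas with either control library left out, or with the replicate number as a block, none was.

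Most genes of the cytoplasmic ribosome had a higher mean log2 value in ap > Yki, but 1 passed the test. This was so for 82 of 87 genes, against 3843 of all 7858, with a median log2 fold change of 0.44 against -0.01 for all genes. In 60 of the 87 all ap > Yki libraries lay above both controls, against 21.8% of all genes. Only RpL24-like was called, from 114 and 135 to 365, 282 and 255 (log2 fold change 1.26, standard error 0.286, adjusted p = 0.0433 by limma), and its product works in the assembly of the large subunit. That call held in 2 of 10 leave-one-out fits. The summed deposited values of the 87 genes were 182520 and 180830 in the controls and 310920, 239970 and 230500 in ap > Yki. The correlation of deviations with transcript length (rho) was 0.214 and 0.033 in the controls and -0.203, -0.127 and 0.474 in ap > Yki. The exons of RpL24-like span 773 bases, against a median of 2174 over all genes tested. With the length trend removed its log2 fold change was 1.31. The part of transcript length in the rise of the list was not tested. Several of these genes have near-identical copies whose shared reads were not counted, so that their levels are uncertain. By DESeq2 5 of them were called and by edgeR none. Of 43 genes of ribosome biogenesis 2 were called higher. Non1, a nucleolar GTPase of the large subunit, rose from 177 and 176 to 748, 634 and 823 (log2 fold change 2.05, standard error 0.198, adjusted p = 0.00114 by limma), which held in all 10 leave-one-out fits, and CG4364, the pescadillo homologue, from 142 and 153 to 334, 288 and 314 (log2 fold change 1.08, standard error 0.190, adjusted p = 0.0161 by limma). The median of the list was 0.10, and none of 30 aminoacyl-tRNA synthetase genes was called by limma, edgeR or DESeq2 (median 0.26), with 6 at an unadjusted p under 0.05.

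Genes of the Toll pathway and of immune recognition, also listed after values had been seen, had 7 of 36 members called higher and 1 lower, with a median of 0.22. Beside PGRP-SA they were Dif, a nuclear factor of the Toll pathway (from 4.86 and 4.16 to 21.2, 13.3 and 26.1, log2 fold change 2.0), the proteases psh (1.83) and ea (1.10), GNBP2, a member of the family of glucan-binding proteins (1.29), dnr1 (1.35) and cactin (0.84). The ligand gene spz6 was lower, from 18.1 and 16.7 to 5.18, 3.23 and 3.99 (log2 fold change -1.97, standard error 0.243, adjusted p = 0.00344 by limma). The receptor gene Tl had 0.10 and cact, the inhibitor of the pathway, 0.11. Of 11 markers of hemocytes, blood cells that express immune genes, none was called by limma, 6 had an unadjusted p under 0.05 and DESeq2 called 3, with summed values of 49.7 and 57.7 in the controls and 49.5, 46.8 and 101 in ap > Yki. Larval fat body markers summed to 68.8 and 75.0 in the controls and to 192, 139 and 40.7 in ap > Yki, with none of 8 called and 1 at an unadjusted p under 0.05, and their part in these rises was not tested. Without ap > Yki replicate 3, 2 members of the immune list were called higher and 1 lower, and with either control library left out none was.

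**Figure D3:**
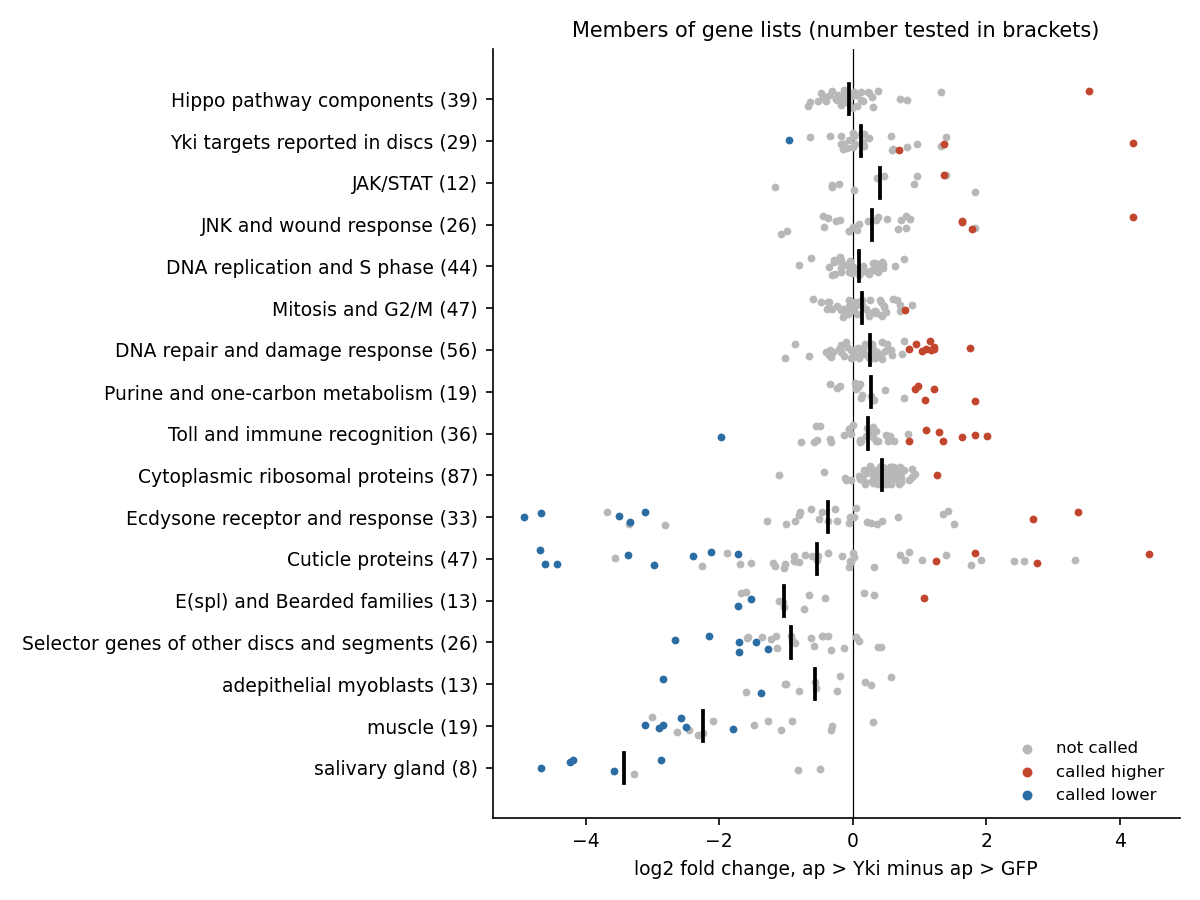
Log2 fold change of ap > Yki over ap > GFP of each tested member of 17 lists (horizontal axis), 1 row for each list with the number tested in brackets, red for genes called higher, blue for genes called lower, grey for the rest, and a black bar for the median. The bar is at -3.43 for the salivary gland list and -2.25 for the muscle list, and at 0.44 for the ribosomal proteins.

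By the same rule the largest falls were those of CG13460, t, ImpE2, CG11300, Lcp3, Sgs3, Lcp2, Lcp4, CG8916 and Eig71Ee. CG13460 went from 58.5 and 47.5 to 0.323, 2.56 and 0.0464 (log2 fold change -5.58, standard error 0.808, adjusted p = 0.00745 by limma), with the ap > Yki libraries far apart. CG8916 went from 10.5 and 16.4 to 0.162, 0.0950 and 0.464 (log2 fold change -4.23, standard error 0.462, adjusted p = 0.00159 by limma). CG11300 had 367 and 150 reads in the controls and 2, 0 and 1 in ap > Yki, a ratio of 308 (95% exact interval 105 to 1500). All ap > Yki libraries were below both controls in these 3 genes, as the rule that chose them required.

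Several of the falls were of genes that respond to ecdysone. Of 33 such genes 5 were called lower and 2 higher, with a median log2 fold change of -0.37. ImpE2, a gene of imaginal discs that ecdysone induces, was among the abundant genes of the controls at 1246 and 1360.4. It was at 54.6, 63.5 and 21.8 in ap > Yki (log2 fold change -4.93, standard error 0.643, adjusted p = 0.00409 by limma). Its groups did not overlap, as the rule for the largest falls required. ImpE3, of the same kind, went from 115 and 120.3 to 17.6, 17.1 and 4.60 (log2 fold change -3.33, standard error 0.573, adjusted p = 0.0141 by limma). The nuclear receptor gene Eip78C went from 15.6 and 23.2 to 1.99, 1.47 and 0.557 (log2 fold change -3.50, standard error 0.455, adjusted p = 0.00409 by limma), and Hr46, the receptor Hr3, from 5.56 and 4.80 to 0.108, 0.142 and 0.232 (log2 fold change -3.11, standard error 0.656, adjusted p = 0.0334 by limma), where 2, 3 and 5 reads were left. ImpE1 (104 and 109.5 against 12.7, 14.4 and 17.6), Hr4 (32.5 and 39.5 against 2.37, 6.36 and 0.650) and Blimp-1 (15.3 and 12.8 against 0.647, 1.71 and 0.650) showed no overlap either but missed the threshold, with adjusted p-values by limma of 0.0943, 0.0896 and 0.0582. The fifth member called lower was Sgs3, a glue gene of the salivary gland described with that tissue below. The receptor genes EcR (0.37) and usp (-0.05), and the early genes Eip74EF (-0.24) and Eip75B (-0.37), were not called. The 2 members called higher were ImpL3 and Cyp18a1. The early gene br had values of 577 and 479.8 in the controls and 126, 179 and 448 in ap > Yki (log2 fold change -1.28, standard error 0.902, adjusted p = 0.533 by limma), of which replicate 3 lay close to the controls.

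Without ap > GFP replicate 1, 3 ecdysone genes were called lower, without its replicate 3 none, and without ap > Yki replicate 3, 4. The 2 ap > NelfAi libraries, which carry no Yki transgene, differed from each other in these genes (Hr46 at 0.168 and 4.41, Blimp-1 at 2.52 and 35.0). They also differed in the trend with transcript length (rho = -0.663 and 0.485). Without these 2 libraries in the fit 8 members were called lower.

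Cuticle protein genes changed in both directions. Of 47 tested, 8 were called lower and 4 higher, with a median of -0.53, and with either control library left out 3 were called lower and none higher. The cluster of larval cuticle genes Lcp2 (from 88.5 and 33.2 to 3.13, 1.90 and 0.790), Lcp3 (from 129.9 and 23.9 to 3.88, 0.950 and 1.16) and Lcp4 (from 176 and 63.2 to 5.82, 5.94 and 2.42) had log2 fold changes of -4.61, -4.68 and -4.43. In all 3 the control libraries differed from each other by several-fold, replicate 1 being the higher. Cpr49Ac was steadier, at 135 and 150.2 in the controls and 21.0, 15.9 and 16.6 in ap > Yki (log2 fold change -2.97, standard error 0.306, adjusted p = 0.00120 by limma), and together with Cpr49Ag (-3.37) and Cpr65Ec (-2.40) it was called in all 10 leave-one-out fits. The genes called higher were Lcp65Ag2, Lcp65Ag1, Cpr35B (1.83) and Cpr66D (1.24). For Lcp65Ag2, 1 and 0 reads were counted in the controls and 179, 164 and 369 in ap > Yki, a ratio of 398 with an exact 95% interval of 71.2 to 15740. Lcp65Ag1 had no read in either control and 49, 43 and 93 in ap > Yki, at least 34.5-fold higher when the controls are set to 3 reads over the group. The 2 genes are near-identical copies, and since reads with several alignments stand apart from the genes in the table, how reads divide between them is uncertain. None of 24 other genes of chitin and the apical matrix was called by limma or edgeR (median 0.12), although 10 had an unadjusted p under 0.05 and DESeq2 called 5. Of 13 serpin genes Spn43Aa was lower, from 129.98 and 152 to 25.0, 24.4 and 7.34 (log2 fold change -3.05, standard error 0.631, adjusted p = 0.0315 by limma), and Spn42Dc higher (1.86). Neither was called with either control library left out, and Spn43Aa was not called by edgeR (adjusted p = 0.0859) or DESeq2 (adjusted p = 0.133).

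Markers of tissues that can remain attached to a dissected disc were among the genes called lower. Of 19 muscle genes 6 were called lower and none higher, with a median of -2.25, and their summed values were 1040 and 672 in the controls and 417, 357 and 595 in ap > Yki. Zasp66, a protein of the Z disc, fell from 17.7 and 16.5 to 2.53, 1.09 and 1.25 (log2 fold change -3.11, standard error 0.465, adjusted p = 0.00850 by limma), and the muscle actin gene Act57B from 174 and 80.0 to 20.5, 18 and 11.1 (log2 fold change -2.85, standard error 0.561, adjusted p = 0.0267 by limma). TpnC73F, a troponin C gene (-2.91), and Mlp84B, a muscle LIM protein gene (-2.58), were also lower. Of 8 salivary gland genes 5 were lower, with a median of -3.43. The glue gene Sgs3 had values of 20.8 and 73.6 in the controls and 2.10, 0.712 and 0.697 in ap > Yki (log2 fold change -4.67, standard error 0.756, adjusted p = 0.0118 by limma), and Sgs7, Sgs8 and Eig71Ee had log2 fold changes of -4.19, -3.58 and -4.23. Their summed values were 113 and 399 in the controls and 28.5, 32.0 and 55.8 in ap > Yki, so that the controls differed from each other as well. With either control library left out no muscle gene was called. The salivary gland list kept 4 calls without ap > GFP replicate 1 and none without replicate 3. The part of attached tissue in the falls of ecdysone, cuticle and other genes was not tested.

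Markers of the cells of the disc itself were read in the same way. Adepithelial myoblasts, the muscle precursors on the notum, gave summed values of 486 and 406 in the controls and 190, 182 and 258 in ap > Yki, with 2 of 13 markers called lower (Act57B and Ama) and a median of -0.57. Neither was called with either control library or ap > Yki replicate 3 left out. Their defining transcription factor twi had 21.0 and 19.2 against 13.3, 11 and 16.9 and Mef2 33.4 and 30.0 against 30.2, 29.7 and 52.2, neither called. Ama, an immunoglobulin-domain protein, went from 159 and 194 to 71.8, 74.2 and 57.6 (log2 fold change -1.37, standard error 0.308, adjusted p = 0.0417 by limma). None of 9 notum markers was called, with 5 at an unadjusted p under 0.05, and all 9 had a lower mean log2 value (median -0.74), with mirr at 39.3 and 30.5 in the controls and 10.7, 13.7 and 22.9 in ap > Yki. Of 8 pouch markers vg alone was called (median -0.29), and of 4 peripodial markers drm, a zinc finger gene, from 89.3 and 87.6 to 36.8, 40.2 and 36.2 (log2 fold change -1.22, standard error 0.208, adjusted p = 0.0137 by limma). None of 5 hinge markers (median -0.65) or 4 neuronal markers (median -0.44) was called by limma, edgeR or DESeq2, and 1 and 0 had an unadjusted p under 0.05. Of 9 tracheal markers btl, the FGF receptor gene, was called higher, from 1.98 and 1.83 to 5.61, 9.64 and 5.85 (log2 fold change 1.61, standard error 0.280, adjusted p = 0.0150 by limma). The median was 0.50, with 6 of the 9 higher in mean log2 value and the transcription factor gene trh at -0.15. An unadjusted limma p under 0.05 was found for 5, and DESeq2 called 2 higher and 1 lower. Summed values of the 9 were 1025 and 735 in the controls and 1479, 1375 and 1228.5 in ap > Yki. Over the 10 leave-one-out fits the log2 fold change ran from -1.265 to -1.191 for drm and from 1.371 to 1.737 for btl.

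Transcription factors that select other discs or segments, a list chosen after values had been seen, had 6 of 26 members called lower and none higher, with a median of -0.92. The Hox gene Scr had 29 and 81 reads in the controls and 1, 1 and 0 in ap > Yki, a ratio of 98.4 (exact 95% interval 26.6 to 823), and Dfd 33 and 28 against 0, 0 and 1, a ratio of 109 (18.9 to 4380). Values in the controls were low, at 1.85 and 4.37 for Scr and 2.11 and 1.51 for Dfd. The homeobox gene al, which is active in the wing disc too, went from 19.1 and 20.6 to 8.09, 7.46 and 8.22 (log2 fold change -1.27, standard error 0.209, adjusted p = 0.0122 by limma), and Optix (-1.45), H15 (-1.71) and TfAP-2 (-1.71) were lower as well. Genes of the E(spl) and Bearded families, which respond to Notch and were also listed after the values were known, had 2 of 13 members called lower and 1 higher, with a median of -1.03. E(spl)mdelta-HLH went from 22.2 and 25.6 to 7.12, 7.08 and 10.1 (log2 fold change -1.52, standard error 0.241, adjusted p = 0.0107 by limma) and E(spl)m2-BFM from 29 and 36.4 to 11.3, 9.12 and 8.36 (log2 fold change -1.72, standard error 0.350, adjusted p = 0.0297 by limma), while Brd was higher (1.06). With either control library left out none of the E(spl) and Bearded genes was called and 1 of the selector genes was.

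The remaining lists held few calls, as lists of this size would at the shares of all genes, 2.41% higher and 1.64% lower. None of 21 genes of the EGFR pathway (median -0.28), 25 of the Dpp and Hedgehog pathways (-0.05), 20 of the Notch pathway and the dorsal compartment (-0.12) or 33 of apical-basal polarity and adhesion (0.04) was called by limma or edgeR. At an unadjusted limma p under 0.05 these lists held 4, 1, 6 and 1 genes, and DESeq2 called 1, 1, 3 and 0. Of 21 genes of the Wingless pathway 1 was called lower, which was vg (median -0.06). Of 15 basement membrane genes Tig, which encodes the integrin ligand tiggrin, was higher, from 1.66 and 1.73 to 4.10, 4.37 and 6.50 (log2 fold change 1.30, standard error 0.299, adjusted p = 0.0450 by limma), with a median of 0.17. That call held in 2 of 10 leave-one-out fits and not by edgeR (adjusted p = 0.0666). None of 33 proteasome genes was called (median -0.24), with a lower mean log2 value in 31 and 4 at an unadjusted p under 0.05, nor was any of 31 respiratory chain genes (median -0.24), with 7 at that level and 2 called by DESeq2. Of 25 genes of ER translocation and processing 23 had a lower mean log2 value and 1 was called, Sec61gamma, from 97.1 and 147 to 55.7, 47.3 and 37.0 (log2 fold change -1.37, standard error 0.312, adjusted p = 0.0437 by limma), with a median of -0.45, and this held in 2 of 10 leave-one-out fits. In the lists without a call the largest changes were those of mirr (EGFR, -1.18), magu (Dpp, 0.90), E(spl)malpha-BFM (Notch, -1.68), alpha-Cat (adhesion, -0.78), mey (apical matrix, -1.46), Slimp (synthetases, 0.74), Prosbeta3 (proteasome, -0.63), cype (respiratory chain, -0.72), PPO1 (hemocytes, -2.59), Fbp1 (fat body, 1.51), zfh2 (hinge, -1.17) and futsch (neurons, -0.76), on the log2 scale. Beyond the lists, and picked after values had been seen, eIF-4a, the helicase of translation initiation, rose from 1964 and 1844 to 5265, 4286 and 3698 (log2 fold change 1.20, standard error 0.216, adjusted p = 0.0178 by limma), Inos, the inositol phosphate synthase gene, from 72.1 and 75.2 to 317, 292 and 179 (log2 fold change 1.78, standard error 0.362, adjusted p = 0.0297 by limma), and Desat1, a fatty acid desaturase gene, from 194 and 155 to 410.1, 456 and 363 (log2 fold change 1.23, standard error 0.191, adjusted p = 0.0100 by limma). Act5C, the main cytoplasmic actin gene, was lower, at 8548 and 9111 in the controls and 5523, 5502 and 3862 in ap > Yki (log2 fold change -0.85, standard error 0.196, adjusted p = 0.0449 by limma), which held in 2 of 10 leave-one-out fits.

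Because calls changed when single libraries were left out, in part with only 1 control left, genes called in all 10 leave-one-out fits were counted. This selection was made after values had been seen. There were 24 genes called higher, with log2 fold changes between 1.43 and 4.38, and 10 called lower, between -5.26 and -2.40. All 34 were also called under each of 10 other settings, among them edgeR, DESeq2, other pseudocounts and the replicate block. The genes called higher include, beside yki, Cyp6a20, Cyp18a1, CG11697 and Non1, the A-type lamin gene LamC (from 70.3 and 60.0 to 258, 191 and 209, log2 fold change 1.74, standard error 0.188, adjusted p = 0.00154 by limma). Esyt2, an extended synaptotagmin gene, rose from 8.95 and 6.53 to 53.4, 52.5 and 74.8 (log2 fold change 2.88, standard error 0.265, adjusted p = 0.000951 by limma), and BBS8, of the Bardet-Biedl complex of cilia, from 3.64 and 3.51 to 17.8, 19.2 and 16.9 (log2 fold change 2.18, standard error 0.204, adjusted p = 0.000951 by limma). The others include aru (1.49), CG33156, also named Nadk1b (1.43), and genes known by number only, such as CG43394 (3.45), CG15784 (2.91), CG17104 (2.07), CG11125 (2.06) and CG17121 (1.72). CG43394 had values of 11.2 and 8.58 in the controls and 90.5, 106 and 147 in ap > Yki. The genes called lower were t, CG8916, CG11300, CG5171, CG13023, CG11835, Ect3, Cpr49Ac, Cpr49Ag and Cpr65Ec.

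**Figure D4:**
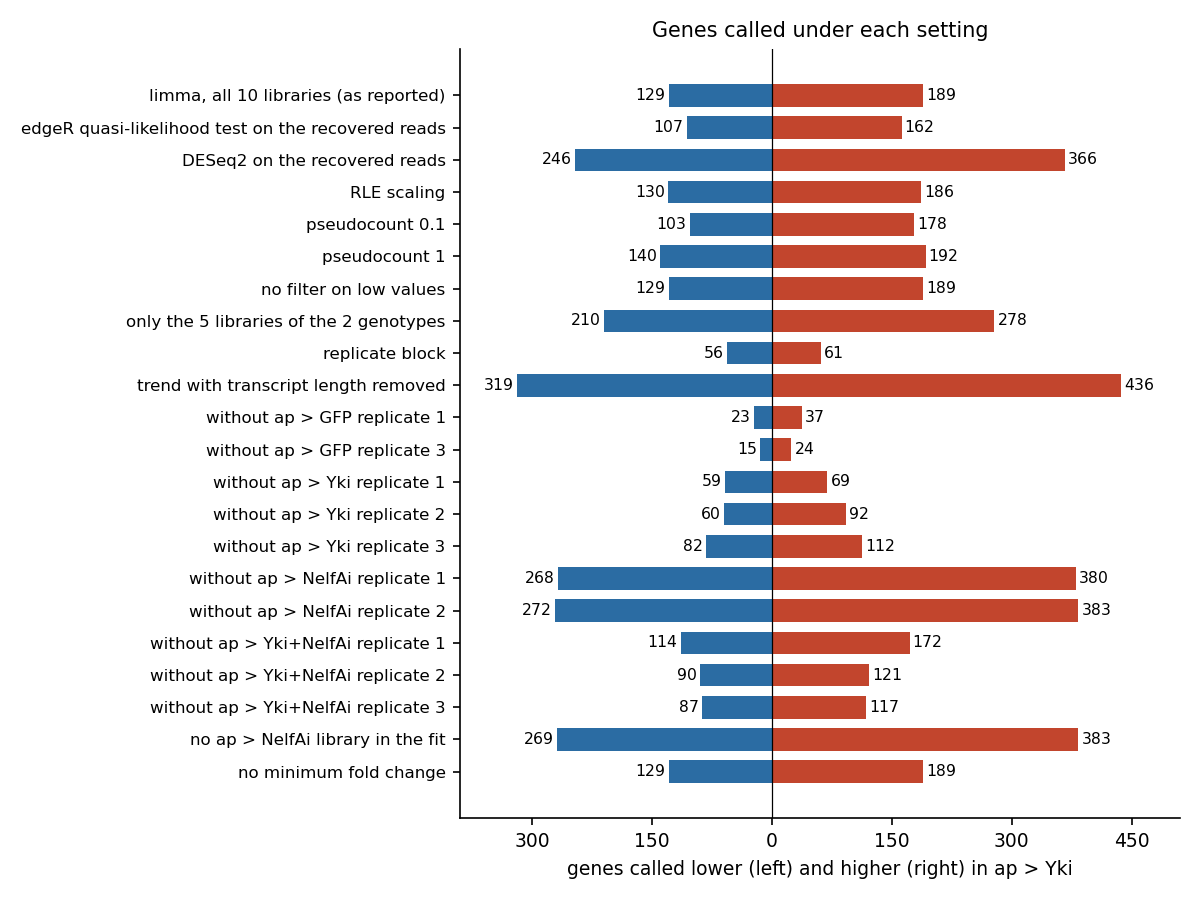
Number of genes called lower (left, blue) and higher (right, red) in ap > Yki than in ap > GFP under each setting, the first bar being the result reported here (189 higher, 129 lower). The counts are smallest without ap > GFP replicate 3 (24 and 15) and largest with the trend with transcript length removed (436 and 319).

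In 7 genes the Yki transgene divided all 10 libraries, with a value under 1 on one side and of at least 4 on the other, by limits set after values had been seen. Low in all 6 libraries with the transgene and present in all 4 without it were t, CG8916, CG33333 and Ect3. The gene t, also called tan, encodes the hydrolase that frees dopamine and histamine from their conjugates, and lies on chromosome X (dm6) between 9217655 and 9223257. It had 320 and 432 reads in the controls and 3, 1 and 1 in ap > Yki (log2 fold change -5.26, standard error 0.259, adjusted p = 3.51e-05 by limma), and values of 17.0 and 22.6 in ap > NelfAi. The reverse held for CG11697, CG2837, also named snsl, and Lcp65Ag2. CG11697 lies on chromosome X (dm6) between 11572707 and 11573640 and CG2837 on chromosome arm 2L (dm6) between 4903865 and 4906762. The libraries with the transgene share UAS Yki, so that its insertion and genetic background and Yki itself cannot be told apart in these 7 genes.

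A second comparison of Yki with no library in common is at hand in the discs that carry the RNAi construct, ap > Yki+NelfAi against ap > NelfAi. There 8.36% of all genes were called higher and 9.11% lower. Of the 189 genes called higher in ap > Yki, 129 (68.3%) were called higher there as well and 6 lower, and 170 had the same sign. Of the 129 genes called lower, 110 (85.3%) were called lower there as well, none higher, and all had the same sign. The median log2 fold change in that comparison was 1.24 for the first group, -2.94 for the second and 0.04 for all genes. All 34 genes called in every leave-one-out fit were called in the same direction. The labels of the libraries with the RNAi limit this. In ap > NelfAi replicate 2 the deposited value of Nelf-A was 32.9, while the control and ap > Yki libraries ranged from 28.1 to 40.4. The spread in limma is also estimated from all libraries for both comparisons. In ap > NelfAi replicates 1 and 2 the deviations from the gene means went with transcript length in opposite directions (rho = -0.663 and 0.485). The part of transcript length in this comparison was not tested.

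The 6 genes called in the opposite direction were btl, amd, tld, GNBP2, Cpr66D and CG33099. The gene amd, which acts in cuticle formation, had values of 3.96 and 3.35 in the controls and 30.5, 19.6 and 17.3 in ap > Yki (log2 fold change 2.43), and a mean of 1.42 in ap > Yki+NelfAi against 5.70 and 4.47 in ap > NelfAi. Tested directly, the effect of Yki differed between discs with and without the RNAi in 99 genes (1.26%). Set beside ap > Yki, whose libraries also enter the first comparison, 17.4% of all genes differed in ap > Yki+NelfAi in either direction. Among the genes described above, Ilp8 (-1.79), Cyp6a20 (-1.79), Osi15 (-2.35), th (-1.01), vg (-0.82) and ImpE2 (-4.48) were called lower there than in ap > Yki, and yki (1.56), upd3 (2.01), os (1.57), wg (0.64), ImpL3 (2.01) and Thor (2.14) higher, each number being the log2 fold change of ap > Yki+NelfAi against ap > Yki. For t (0.01), Aldh (0.01), Non1 (0.32), CG11697 (0.40) and CG43394 (0.28) no such difference was called.

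**Figure D5:**
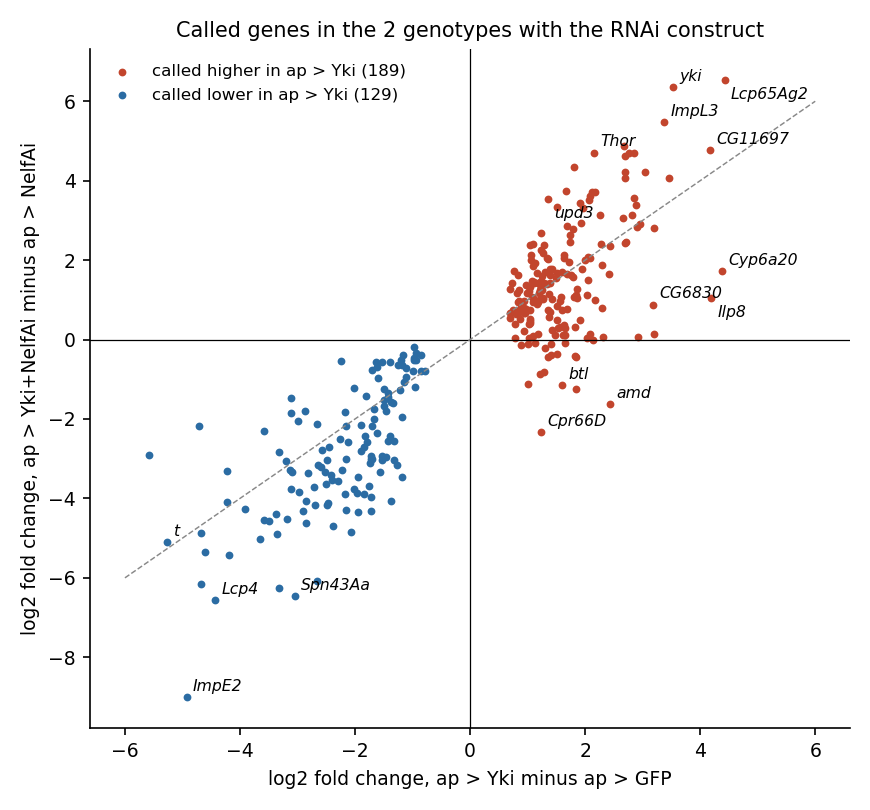
Log2 fold change of ap > Yki over ap > GFP (horizontal axis) and in ap > Yki+NelfAi against ap > NelfAi (vertical axis) for the 189 genes called higher (red) and the 129 called lower (blue) in the first comparison, with a dashed line of equal change. All blue points lie below 0 on the vertical axis, and 170 of the red points lie above it.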

How the data were processed

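Wing disc RNA was sequenced in 10 libraries. Per the methods, the authors processed reads with the HISAT protocol and ran DESeq and edgeR for their comparisons. The submitters' processing notes name bcl2fastq, HISAT, StringTie, edgeR and the build dm6. The deposited table holds a scaled signal per gene, that is, reads divided by a factor of the library, and how that factor was set is not given in the sources used here. Reads with several alignments stand in an entry of their own in the table, apart from the genes. All values came back to whole reads within 0.001 of a read. The 5 entries that name no gene, with 28.4% to 36.5% of each library's total in the 5 libraries compared, were left out. The authors' comparison tables (fold changes, p-values and FDR) were not used.

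Genes that reached a value of 1 in 2 or more libraries were tested with limma 3.58.1 (trend) in R 4.3.3 on log2(value + 0.5), in 1 model with genotype over all 10 libraries, and p-values were adjusted by Benjamini-Hochberg over the 7858 genes. A gene was called when it changed 1.5-fold or more with an adjusted p below 0.05. Alternatives were edgeR 4.0.16 and DESeq2 1.42.0 on the recovered reads, relative log expression scaling, other pseudocounts, no filter, no minimum fold, the 5 libraries alone, a replicate block, removal of the trend with transcript length (lowess span 0.3), and each library left out. Scripts were tested on simulated data. Intervals of read ratios cover counting error only.

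Genes were named as the 10 largest rises and falls among called genes without overlap and averaging 5 or more in the higher genotype, the genes of a core list, and up to 4 called members of each other list, or its largest change where none was called. Others were picked after their values were seen. Members and lists were chosen with earlier results of these data known, and a few genes that name patterns or slips had brought into the wrong list were dropped. Positions are from the BDGP6 annotation (dm6), which named 7876 of 7987 genes. Promoter sequences were not analysed here. The values of 1 called list member are not reported here. Figures were drawn with matplotlib 3.10.9.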

Additional observations from a re-analysis of the deposited data

Results flagged for a closer look

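For 7 of the named genes the effect of Yki differed between discs with and without the Nelf-A RNAi, by the interaction term in limma over all 10 libraries, with adjusted p-values over all genes tested. The values are the log2 fold change of Yki in discs with the RNAi minus that in discs without it. The difference was positive for yki (2.82, adjusted p = 0.0332), for Thor, the translation inhibitor (2.55, adjusted p = 0.0412), and for upd3, the JAK/STAT ligand (2.17, adjusted p = 0.0400), which all rose with Yki without the RNAi. It was negative for btl, the FGF receptor (-2.76, adjusted p = 0.0245), Ama, an immunoglobulin-domain protein (-2.70, adjusted p = 0.0304), CG6830 (-2.30, adjusted p = 0.0287) and the glutathione S-transferase GstT4 (-1.78, adjusted p = 0.0312). The ap > NelfAi libraries on which these differences rest had Nelf-A values of 11.4 and 32.9. Their deviations from the gene means went with transcript length in opposite directions (rho = -0.663 in replicate 1 and 0.485 in replicate 2). The exons of Nelf-A itself span 4648 bases. The part of these libraries and of transcript length in the differences was not tested.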

How the results depend on the processing

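Against 189 genes called higher and 129 lower, DESeq2 gave 366 and 246, the 5 libraries alone 278 and 210, the length trend removed 436 and 319, and the fit without ap > NelfAi 383 and 269, the last chosen after seeing the data. The cause was not tested. With the replicate block 61 and 56 were called. Deviations of same-numbered libraries correlated at -0.125 (replicate 1) and -0.197 (replicate 3). With 2 controls the deviations of one mirror those of the other, so this cannot show whether libraries of the same number share a batch. Leaving out 1 library gave 24 to 383 higher and 15 to 272 lower. Other settings stayed within 1.5 times, edgeR at 162 and 107. Among named genes 1314 alternative values kept direction and side of the threshold, 216 lost the call, 39 gained one and 9 changed sign. Sign changes were in dm (0.0442 by edgeR, 0.0234 by DESeq2, 0.0526 with the length trend removed, and -0.34 to 0.275 leaving out 1 library), Mmp1 (-0.15 with the block, -0.18 to 0.20) and CycE (-0.29 to 0.0356), none of them called. Each count rests on 2 control libraries of 8384594 and 9746830 reads.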
